A study of Drosophila melanogaster with 6 samples.

Results

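The mitochondrial ribosomal protein genes of *Drosophila* were compared between *Apc1* mutant and wild-type adult midguts. Members were all genes whose deposited symbol begins with *mRpL* or *mRpS* followed by a digit, which gave 70 genes of the 12996 gene entries measured on the arrays. Of these, 44 carried a large subunit symbol and 26 a small subunit symbol. A gene with several probe sets was represented by the one with the highest mean over all arrays, which applied to 3 members, and 2 members were read by a probe set shared with another gene.

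Mitochondria carry their own ribosome, which translates the few messages encoded by mitochondrial DNA, all of them core subunits of the respiratory chain and the ATP synthase. Its protein subunits are encoded in the nucleus, made in the cytosol and imported, and they assemble on mitochondrial ribosomal RNA into a small subunit that decodes the message and a large subunit that forms the peptide bond. Some of these proteins have a bacterial counterpart and carry its number, whereas others were added in the mitochondrial lineage. In the fly midgut, intestinal stem cells give rise to absorptive enterocytes and secretory enteroendocrine cells, and mitochondrial activity is known to differ between progenitors and their differentiated progeny.

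Whole midguts were dissected from 7-day-old adult females that were mutant for *Apc1Q8*, a null allele written *Apc1*-/- in the sample descriptions, or wild type. *Apc1*, listed as *Apc* on the array, encodes one of the fly homologs of the tumour suppressor APC, a scaffold of the complex that destroys the Wingless transcriptional coactivator Armadillo. Each genotype was measured on 3 Affymetrix arrays, each with RNA from pooled midguts. The control strain was called *w1118* in the description of the series and Canton S in the methods of the study. The allele was carried by the whole animal, so that effects of gut and non-gut cells, and of strain background, cannot be told apart. In whole tissue, a lower level can reflect fewer cells of a type or less RNA per cell, which cannot be told apart either. Nothing in the labels says that the arrays of a genotype came from separate cultures, so p-values measure the spread between these samples.

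Values were log2 intensities after robust multi-array averaging (RMA), and a difference of 1 on this scale is a doubling of the signal. Arrays of the same genotype correlated at 0.982 to 0.992 over all entries and arrays of different genotypes at 0.949 to 0.961. *fz3*, a Wingless target, read 8.77 ± 0.32 in *Apc1* mutant midguts and 6.24 ± 0.14 in wild-type midguts (SD, n = 3 each, limma adjusted p = 0.000271). *Apc* itself read 6.49 ± 0.41 in *Apc1* mutant midguts and 6.36 ± 0.41 in wild-type midguts (SD, n = 3 each), and its probe set did not separate the genotypes (limma adjusted p = 0.781).

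Few of the mitochondrial ribosomal protein genes differed between the genotypes. At a limma adjusted p under 0.05, 4 of 70 members were higher in *Apc1* mutant midguts, where 8.9% of all entries were, and 1 of 70 was lower, where 5.39% of all entries were. The 4 members that rose were *mRpS14*, *mRpL39*, *mRpL32* and *mRpL48*, and the one that fell was *mRpL28*. After centring each array or after quantile normalization, *mRpS14* and *mRpL39* were the only members called higher. In both directions together, 5 of 70 members (7.14%) passed the test, beside 14.3% of all entries. Members with a change of at least 1.5-fold that also passed the test numbered 2, *mRpS14* and *mRpL39*, where 11.9% of all entries met both conditions.

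The typical member moved little. The median difference, *Apc1* mutant minus wild type, was 0.07 over the members as deposited, and -0.04 after centring each array on its median and -0.01 after quantile normalization, so its sign depended on the scaling. Over all entries the median was 0.01 as deposited, -0.10 after centring and 0.02 after quantile normalization. Relative to all entries, the members therefore lay 0.06 above the median as deposited and after centring, and 0.03 below it after quantile normalization (-0.03). Against the entries at or above the median level, whose median was 0.13, the members as deposited lay below (-0.06). The quartiles of the member differences were -0.06 and 0.21, and the differences ran from -0.45 for *mRpL33* to 1.06 for *mRpS14*. Differences above 0 were counted in 43 members as deposited, in 29 after centring and in 33 after quantile normalization.

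**Figure D1:**
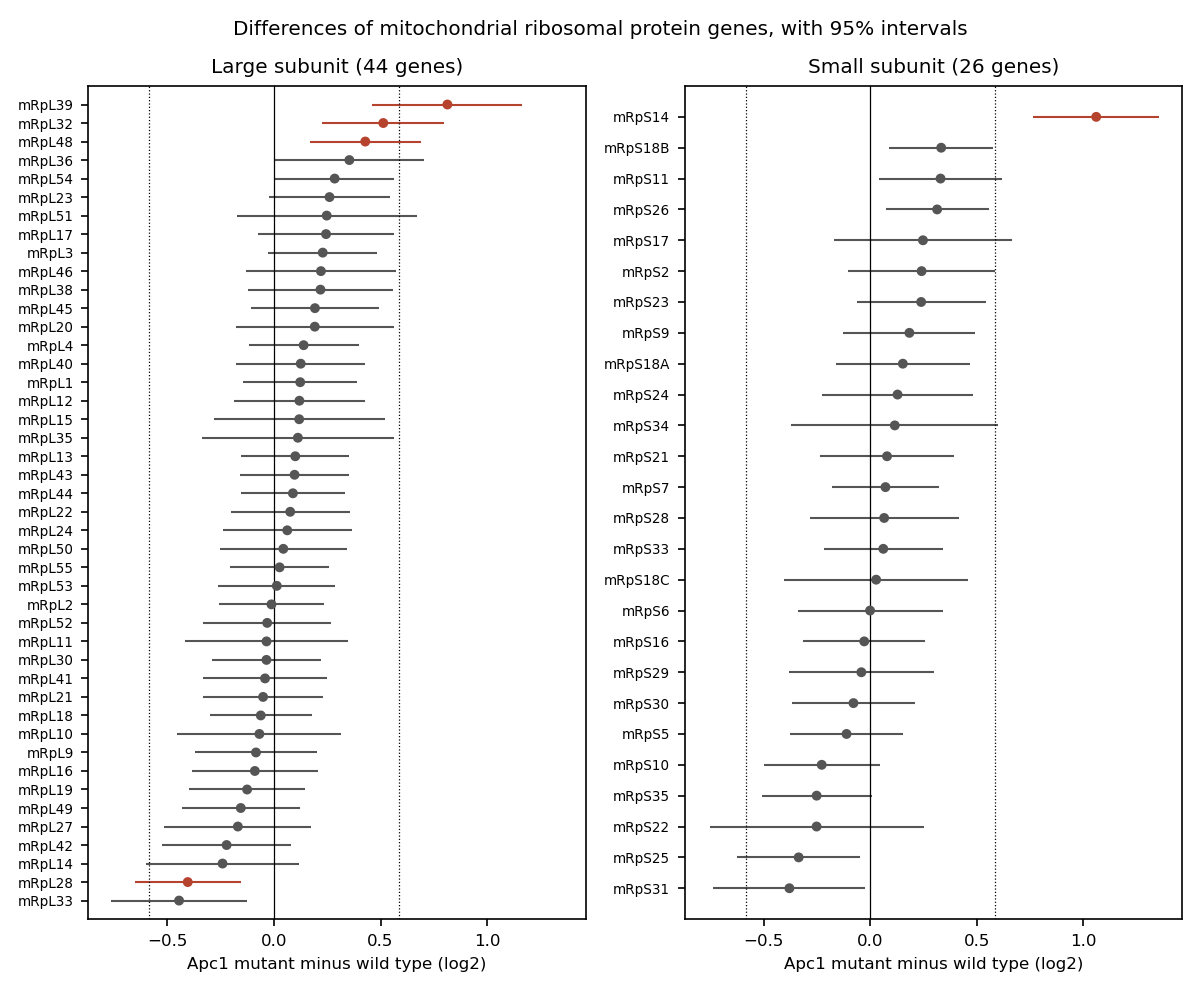
Difference between *Apc1* mutant and wild-type midguts (log2 scale, horizontal axis) for each of the 70 mitochondrial ribosomal protein genes, with the 95% interval of the moderated test as a bar; red marks an adjusted p under 0.05. The 5 red genes are *mRpS14*, *mRpL39*, *mRpL32* and *mRpL48*, above 0, and *mRpL28*, below 0; the median of all members, 0.07 as deposited, is -0.04 after centring and -0.01 after quantile normalization.

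The 95% intervals reflect the spread between these samples under the deposited scaling only. They do not cover the choice of scaling, and their counts were not made under the other scalings. For 55 of 70 members (78.6%), the whole 95% interval of the difference lay within a 1.5-fold change in either direction, compared with 48.3% of all entries and 39% of the entries at or above the median level. The other 15 members had an interval that reached 1.5-fold. The pooled SD within a genotype had a median of 0.13 over the members, against 0.19 over all entries, and ranged from 0.03 to 0.31. All of the members' probe sets were in the brighter part of the array, though 16 averaged under 5. Their means lay between 4.07 and 9.75, where the median entry was at 3.87. When the entries under that median were left out of the fit, 8 of 70 members (11.4%) were called, beside 28.1% of the remaining entries. The 3 members added there were *mRpS18B* and *mRpS26*, higher, and *mRpL33*, lower.

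**Figure D2:**
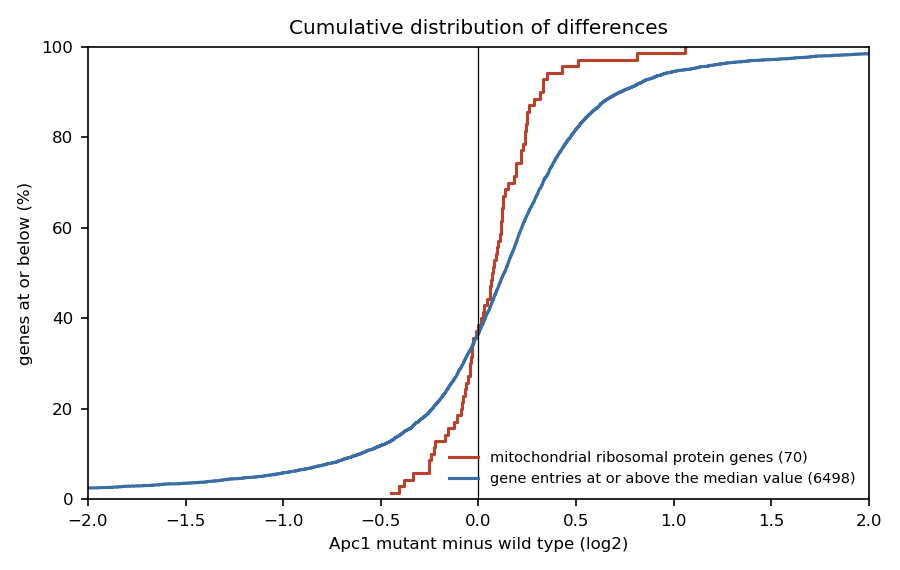
Cumulative share (vertical axis) of genes whose log2 difference between *Apc1* mutant and wild-type midguts (horizontal axis) is at or under a given value, for the 70 members (red) and the 6498 entries at or above the median level (blue); the axis leaves out the most extreme entries. The members' curve is the steeper one, with quartiles of -0.06 and 0.21 against -0.15 and 0.39 for the entries at or above the median, and all of its values lie between -0.45 and 1.06; the members' median, 0.07 here, is below 0 after centring (-0.04) or quantile normalization (-0.01).

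*mRpS14*, which encodes a protein of the head of the small subunit with a bacterial counterpart, showed the largest difference of the members. It read 6.78, 6.71 and 6.46 in *Apc1* mutant midguts, against 5.65, 5.51 and 5.61 in wild-type midguts. Every mutant array was above every wild-type array. The means were 6.65 ± 0.17 in *Apc1* mutant and 5.59 ± 0.07 in wild-type midguts (SD, n = 3 each), a difference of 1.06 (SE 0.13, 95% interval 0.76 to 1.36) or 2.08-fold, with a limma adjusted p of 0.00248. It was called in all 16 alternative fits with a test for this gene, including each omission of 1 array (adjusted p 0.00631 to 0.0138). A second, dimmer probe set, which the array annotation shares with *CG32533*, read 2.74, 2.87 and 2.68 in *Apc1* mutant midguts, against 2.17, 2.85 and 2.35 in wild-type midguts. Those groups overlapped, and the difference was 0.31. *mRpS14* lies on the X chromosome, and none of its 4 nearest measured neighbours, the 2 closest on each side, was called, beside 14.3% of all entries.

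*mRpL39*, a large subunit protein without a bacterial number, was the other member past 1.5-fold. It read 5.46, 5.62 and 5.45 in *Apc1* mutant midguts, against 4.43, 4.90 and 4.75 in wild-type midguts. The groups did not overlap, and wild-type replicate 1 was the lowest array. The means were 5.51 ± 0.09 in *Apc1* mutant and 4.69 ± 0.24 in wild-type midguts (SD, n = 3 each), a difference of 0.81 (SE 0.15, 95% interval 0.46 to 1.17) or 1.76-fold, with a limma adjusted p of 0.0139. The call was kept in 4 of 6 omissions of 1 array. It was lost without *Apc1* mutant replicate 2 (adjusted p = 0.0526) and without *Apc1* mutant replicate 3 (adjusted p = 0.0508), and also in the linear model without moderation (adjusted p = 0.0649).

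*mRpL32* encodes a counterpart of a bacterial large subunit protein that, in yeast and mouse, is cut by the mitochondrial m-AAA protease before it joins the ribosome. It read 6.15, 6.07 and 6.29 in *Apc1* mutant midguts, against 5.77, 5.67 and 5.53 in wild-type midguts, with no overlap. The difference was 0.51 (SE 0.12, 95% interval 0.23 to 0.80), or 1.43-fold, with a limma adjusted p of 0.034. This call held in 1 of 6 omissions of 1 array, the one without wild-type replicate 1 (adjusted p = 0.0495), and the adjusted p was 0.0672 to 0.116 in the other 5. It ended after centring (adjusted p = 0.117) and after quantile normalization (adjusted p = 0.0838). The gene lies on chromosome arm 3R, as *Apc* does, 288 measured genes away. Among its 4 neighbours, 2 were called, beside 14.3% of all entries. These were *CG1750* (0.95) and *spn-F* (0.68), on one side of *mRpL32* and higher like it. The part of position in this difference was not tested.

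*mRpL48* encodes a protein of the central protuberance, the crest of the large subunit that faces the small one. It read 5.23, 5.21 and 5.15 in *Apc1* mutant midguts, against 4.64, 4.82 and 4.85 in wild-type midguts. All mutant arrays were above all wild-type arrays. The difference was 0.43 (SE 0.11, 95% interval 0.17 to 0.69), or 1.35-fold, with a limma adjusted p of 0.0452, and none of the 6 omissions of 1 array kept the call (adjusted p 0.0627 to 0.139). It ended after centring (adjusted p = 0.115) and quantile normalization (adjusted p = 0.092) too. Among the 4 neighbours of *mRpL48* on arm 2L, 2 were called, beside 14.3% of all entries. These were *CG17660* (1.07) and *cpb* (0.55), on one side and higher as well.

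*mRpL28*, a large subunit protein with a bacterial counterpart, was the only member called lower. It read 6.05, 6.08 and 5.96 in *Apc1* mutant midguts, against 6.40, 6.39 and 6.52 in wild-type midguts, and the groups did not overlap. The difference was -0.40 (SE 0.11, 95% interval -0.65 to -0.15), 1.32-fold lower, with a limma adjusted p of 0.0464. As with *mRpL48*, no omission of 1 array kept the call (adjusted p 0.0759 to 0.146). Of its 4 neighbours, 2 were called, *Gmd* (0.81) among them, beside 14.3% of all entries. Both were higher in *Apc1* mutant midguts, opposite in direction to *mRpL28*.

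**Figure D3:**
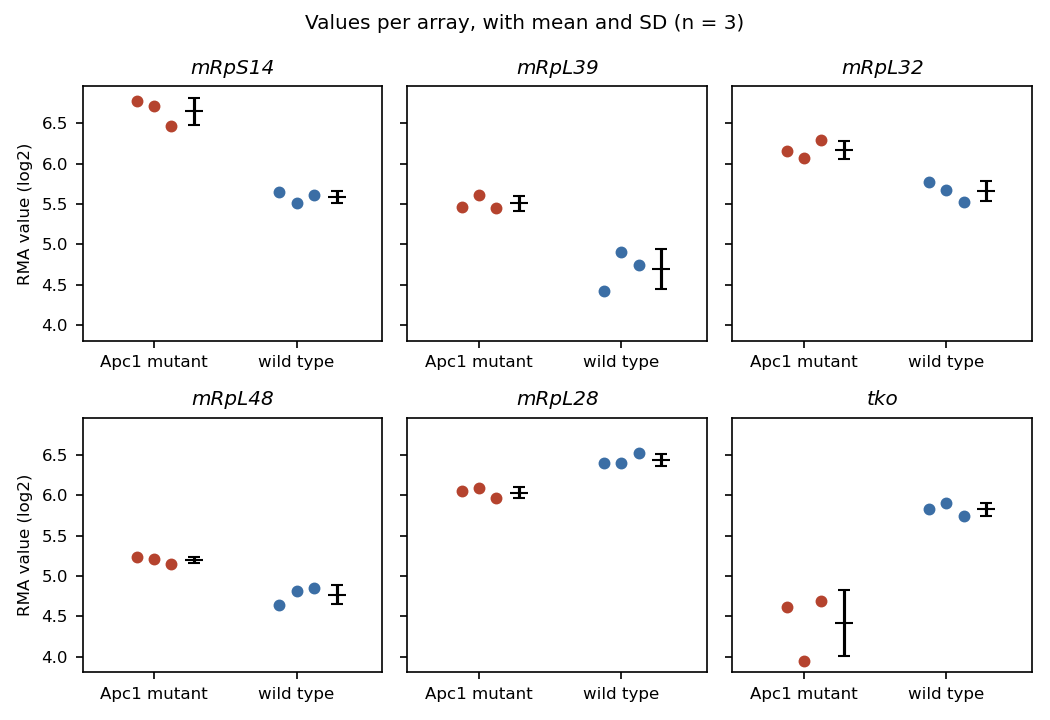
RMA log2 intensity (vertical axis) of the called members and *tko* on each array, with *Apc1* mutant arrays left of wild-type arrays in each panel, points for arrays and bars for the group mean and SD (n = 3). The groups do not overlap in any panel, and the widest gaps between means are those of *tko*, lower in *Apc1* mutant midguts, and *mRpS14*, higher.

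Just past the threshold, *mRpL33*, the counterpart of a bacterial large subunit protein, read 6.97, 6.71 and 6.89 in *Apc1* mutant midguts, against 7.49, 7.16 and 7.26 in wild-type midguts (difference -0.45, limma adjusted p = 0.0734). *mRpS18B*, one of the fly's genes named for the protein S18, read 4.85, 4.86 and 4.73 in *Apc1* mutant midguts, against 4.46, 4.47 and 4.53 in wild-type midguts (difference 0.33, limma adjusted p = 0.0787). *mRpS26*, a small subunit protein without a bacterial number, read 5.82, 5.74 and 5.84 in *Apc1* mutant midguts, against 5.54, 5.49 and 5.43 in wild-type midguts (difference 0.31, limma adjusted p = 0.0902). None of these genes had overlapping groups, and none passed the test. In all, the arrays of the genotypes did not overlap for 14 members that were higher in *Apc1* mutant midguts (20.0%). This was so for 21% of all entries and 32.5% of the entries at or above the median level. For 6 members that were lower (8.57%) there was no overlap either, beside 14.2% and 15.6%. At an unadjusted limma p under 0.05, 13 members passed (18.6%), 9 of them higher and 4 lower. The share was 28.6% of all entries and 40.9% of those at or above the median level.

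By subunit symbol, 4 of 44 large subunit members were called (9.09%), 3 higher and 1 lower. Of 26 small subunit members, 1 was called, higher (3.85%), beside 14.3% of all entries. The median difference was 0.08 for the large subunit and 0.07 for the small one as deposited, and it was below 0 for both after centring (-0.03 and -0.05) and after quantile normalization (-0.01 each). Members with a bacterial number (up to 36 in the large and 21 in the small subunit) included 3 called of 41 (7.32%), with a median of 0.08, and members numbered above included 2 called of 29 (6.9%), with a median of 0.07. The difference between these classes was not tested.

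The L7/L12 stalk recruits translation factors to the ribosome. None of its 3 listed members, *mRpL10*, *mRpL11* and *mRpL12*, was called by limma, beside 14.3% of all entries. An unadjusted p under 0.05 was found for 0 of 3, beside 28.6% of all entries. Lists of this size are too short to set such counts apart from those shares. *mRpL12*, which in the fly is required for growth driven by Cyclin D and Cdk4, read 7.43, 7.08 and 7.35 in *Apc1* mutant midguts, against 7.08, 7.25 and 7.19 in wild-type midguts. The groups overlapped (difference 0.12, 95% interval -0.19 to 0.43). *mRpL10* and *mRpL11* had differences of -0.07 and -0.03.

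Around the tunnel through which the nascent chain leaves the large subunit, the list held *mRpL17*, *mRpL22*, *mRpL23*, *mRpL24*, *mRpL45* and *mRpL47*. Limma called 0 of 6, beside 14.3% of all entries, and 0 of 6 had an unadjusted p under 0.05, beside 28.6%. Their differences ran from 0.01 to 0.26, with *mRpL23* (0.26) and *mRpL17* (0.24) at the upper end, and were above 0 in 6 of 6 genes as deposited, 3 of 6 after centring and 4 of 6 after quantile normalization. *mRpL45*, which in mammals holds the ribosome at the inner membrane, read 7.73, 7.87 and 7.73 in *Apc1* mutant midguts, against 7.71, 7.39 and 7.64 in wild-type midguts. Its groups did not overlap, by a narrow margin, and the adjusted p was 0.372. *mRpL47* was deposited under the symbol *Rlc1* and is therefore not among the 70 members. Of the central protuberance proteins, *mRpL48* was the only one called of 6 (16.7%, beside 14.3% of all entries).

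In the small subunit, 1 of 8 proteins of the head was called, *mRpS14* (12.5%, beside 14.3% of all entries). The median of the head proteins was 0.01 as deposited (-0.10 after centring and -0.09 after quantile normalization). *mRpS10*, also in the head, read 6.62, 6.70 and 6.45 in *Apc1* mutant midguts, against 6.80, 6.88 and 6.77 in wild-type midguts, without overlap (difference -0.23, limma adjusted p = 0.247). Its probe set is shared with *CG34316*, and a second, dim one with the same annotation gave 2.54, 3.51 and 1.46 in *Apc1* mutant midguts, against 1.93, 1.76 and 1.42 in wild-type midguts, a difference of the opposite sign (0.80). *mRpS31*, another head protein, read 5.10, 5.03 and 5.11 in *Apc1* mutant midguts, against 5.53, 5.17 and 5.68 in wild-type midguts (difference -0.38, limma adjusted p = 0.152). It was singled out after its values were seen, since it was called without wild-type replicate 2 (-0.52, adjusted p = 0.0434), an array that lay well below the other wild-type arrays.

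The list for the platform, next to the channel by which the message leaves, held 6 members. They were placed there by symbol, and their position in the fly ribosome was not examined. Limma called 0 of 6, beside 14.3% of all entries, with 2 at an unadjusted p under 0.05 (33.3%), beside 28.6% of all entries. The fly has separate genes for versions of S18, and their differences were 0.15 for *mRpS18A*, 0.33 for *mRpS18B* and 0.03 for *mRpS18C*. *mRpS11* was read by a pair of probe sets that gave similar differences, 0.33 for the brighter and 0.31 for the dimmer one. *mRpS6* read 4.48, 4.11 and 4.25 in *Apc1* mutant midguts, against 4.42, 4.11 and 4.31 in wild-type midguts, with overlap. *mRpS21* had a difference of 0.08 as deposited and -0.04 after centring.

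The 5 members with the highest signal did not pass the test. *mRpS5*, whose probe set had the highest mean, read 9.76, 9.71 and 9.62 in *Apc1* mutant midguts, against 9.82, 9.69 and 9.92 in wild-type midguts (difference -0.11, 95% interval -0.38 to 0.16). *mRpS21*, *mRpL45*, *mRpS18A* and *mRpL12* were the others, with differences of 0.08 to 0.19. At the other end, *mRpL38*, *mRpL52*, *mRpS6*, *mRpL36* and *mRpL2* had the lowest means (4.07 to 4.35), and their differences ran from -0.03 to 0.35. Of these, *mRpL36* came nearest to the threshold. It read 4.64, 4.54 and 4.36 in *Apc1* mutant midguts, against 4.16, 3.94 and 4.37 in wild-type midguts, where the groups overlapped by the narrowest of margins (limma adjusted p = 0.168). Levels of different probe sets were not set against each other beyond this order, since probes differ in brightness for the same amount of RNA.

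The largest spread within a genotype was that of *mRpS22* and *mRpS34*. *mRpS22* read 4.61, 4.68 and 4.72 in *Apc1* mutant midguts, against 5.12, 4.43 and 5.21 in wild-type midguts. Wild-type replicate 2 lay below all mutant arrays, whereas the other wild-type arrays lay above them. The difference was -0.25 (limma adjusted p = 0.49), and it was -0.50 without that array (limma adjusted p = 0.0463). *mRpS34* read 5.27, 4.98 and 5.41 in *Apc1* mutant midguts, against 5.51, 4.95 and 4.86 in wild-type midguts, with broad overlap (limma adjusted p = 0.758). *mRpL53*, whose probe set is shared with *CG33155*, differed by 0.01 (limma adjusted p = 0.954).

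Wild-type replicate 2 was the lowest wild-type array for 29 of 70 members, replicate 3 for 25 and replicate 1 for 16. In the *Apc1* mutant group, replicates 1, 2 and 3 were lowest for 10, 32 and 28 members. The same count over all entries was not made. Wild-type replicate 2 had the highest sums of the ovary and fat body marker lists, and the part of those tissues in the members' values was not tested. The median over the members was 5.66, 5.66 and 5.65 on the *Apc1* mutant arrays, against 5.56, 5.50 and 5.57 on the wild-type arrays. In linear signal, the 4 progenitor markers measured summed to 131 to 134 in *Apc1* mutant and 79.6 to 87.6 in wild-type midguts. Of those 4, *esg* alone was called (1.10, limma adjusted p = 0.000761). *klu* (0.34) was higher without overlap but not called. The groups of *Su(H)* (0.25) and *Sox21a* (0.17), dim at means of 2.37 and 2.93, overlapped. The 7 enteroendocrine markers summed to 2042 to 2526 in *Apc1* mutant and 1081 to 1219 in wild-type midguts. Of those 7, 5 were called higher, *NPF* was called lower (-1.78, limma adjusted p = 0.00939) and *Orcokinin* differed by 0.16 (limma adjusted p = 0.77). By the same measure, the 6 enterocyte markers summed to 6321 to 6741 in *Apc1* mutant and 8363 to 11202 in wild-type midguts. That list was mixed, with the trypsins *betaTry* (-2.04) and *alphaTry* (-0.53) called lower, *Myo31DF* (0.47) and *nub* (0.53) higher without overlap but not called, and a list median of 0.17. The shift in these cell type markers moved with genotype as the called members did, and its part in their differences was not tested. Fat body markers (5 genes) summed to 126 to 807 in *Apc1* mutant and 798 to 2662 in wild-type midguts, and 0 of the 5 were called. These sums came mainly from *Yp1* and *apolpp* (means 9.13 and 7.34), as *Fbp1*, *Lsp2* and *Lsp1beta* averaged 1.41, 1.08 and 1.41. *Yp1* varied widely, at 9.06, 6.11 and 9.18 on the *Apc1* mutant arrays and 9.47, 11.01 and 9.97 on the wild-type arrays.

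The members lay on arms 2L (12), 2R (11), 3L (17), 3R (19) and X (11), and the 18 of 19 on 3R that could be placed among the measured genes were between 57 and 2577 genes away from *Apc*. The nearest of these, *mRpS22*, was not called. The 5 called members lay on 4 arms, with 2 of them on 2L, none on 2R and 1 each on 3L, 3R and X.

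Beside *mRpL47*, a pair of listed mitochondrial ribosomal proteins carries other symbols and falls outside the member rule. *tko* (*technical knockout*), which encodes the counterpart of the bacterial decoding protein S12 and causes seizure-like paralysis when mutated in flies, read 4.62, 3.95 and 4.70 in *Apc1* mutant midguts, against 5.83, 5.90 and 5.74 in wild-type midguts. Every mutant array was below every wild-type array by more than the spread of either group. The means were 4.42 ± 0.41 in *Apc1* mutant and 5.82 ± 0.08 in wild-type midguts (SD, n = 3 each), a difference of -1.40 (SE 0.21, 95% interval -1.89 to -0.92), with a limma adjusted p of 0.00582. This exceeded in size the difference of any of the 70 members. The call was kept in 15 of 16 alternative fits, all 6 omissions of 1 array among them, and lost in the linear model without moderation (adjusted p = 0.0581). Among the 4 neighbours of *tko*, 1 was called, *boi*, which was higher (1.28), beside 14.3% of all entries called. *bonsai*, the counterpart of bacterial S15 known for gut mitochondrial activity and growth in fly larvae, averaged 6.80 ± 0.10 in *Apc1* mutant and 6.76 ± 0.04 in wild-type midguts (SD, n = 3 each, limma adjusted p = 0.844).

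The other steps of mitochondrial translation were read beside the 14.3% of all entries called. Of 9 mitochondrial translation factors, 2 rose (22.2%), the release factor *mRF1* (0.69, limma adjusted p = 0.0304) and the initiation factor *mIF2* (0.63, limma adjusted p = 0.0485). Both were dim, with means of 3.15 and 3.25 where the median entry was at 3.87, and 8 of the 9 factors averaged under 5. The list median was 0.17 as deposited, 0.06 after centring and 0.09 after quantile normalization. Of 15 mitochondrial aminoacyl-tRNA synthetases, *AsnRS-m* alone (6.67%) rose (0.56, limma adjusted p = 0.0396). Its mean was 3.89, and 11 of the 15 averaged under 5. Of 12 genes of mitochondrial DNA maintenance and expression, 1 (8.33%), *mTerf5*, a factor of the transcription termination family, fell (-0.50, limma adjusted p = 0.0458). Leaving out single arrays kept each of these 4 calls in 1 of 6 cases.

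Of the nuclear genes for the respiratory complexes, 2 of 39 in complex I (5.13%), 1 of 4 in complex II (25%), 2 of 10 in complex III (20.0%), 0 of 17 in complex IV and 1 of 16 in complex V (6.25%) were called by limma, beside the 14.3% of all entries. These shares include dim genes. A mean under 5 was found for 7 genes in complex I, 0 in complex II, 2 in complex III, 6 in complex IV and 4 in complex V. Complex II is encoded in the nucleus throughout, whereas the mitochondrial ribosome makes core subunits of the other complexes. In complex IV, 3 genes had an unadjusted limma p under 0.05 (17.6%, beside 28.6% of all entries), and the linear model without moderation called 0. *ND-42*, a complex I subunit, read 10.88, 10.76 and 10.72 in *Apc1* mutant midguts, against 10.06, 10.13 and 10.06 in wild-type midguts (difference 0.70, limma adjusted p = 0.00646), and it was called in all 6 omissions of 1 array. *ND-23* fell (-0.42, limma adjusted p = 0.034), as did *SdhA* of complex II (-0.43, limma adjusted p = 0.0392). In complex III, *UQCR-11*, a dim probe set with a mean of 3.08, rose (1.04, limma adjusted p = 0.0209). *UQCR-11L* fell (-1.29, limma adjusted p = 0.0449). The complex V call, *ATPsynCF6* (-0.60, limma adjusted p = 0.0225), came from a probe set shared with *pnt*. Omitting single arrays kept the calls of *UQCR-11* in 3 of 6 cases, *ATPsynCF6* in 2, *UQCR-11L* in 1, and *ND-23* and *SdhA* in 0. List medians as deposited were -0.12 for complex I, -0.08 for complex II, -0.13 for complex III and -0.16 for complex V. All of these were below 0 under each scaling. Complex IV had -0.06 as deposited, -0.17 after centring and 0.01 after quantile normalization.

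**Figure D4:**
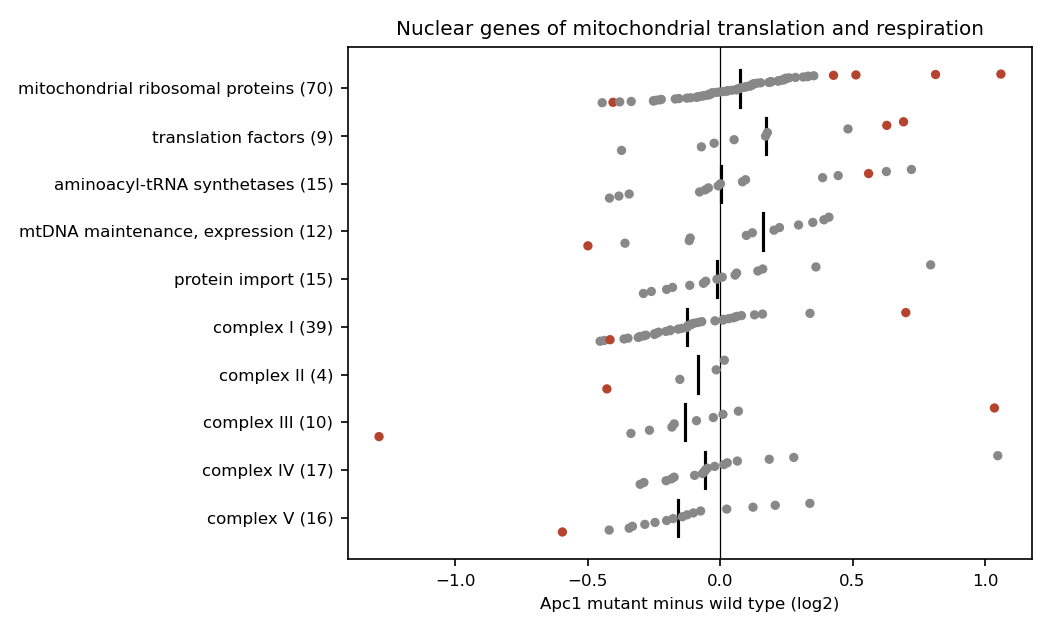
Difference, *Apc1* mutant minus wild type (log2 scale, horizontal axis), for the members of the mitochondrial ribosome and of the other gene lists, 1 point per gene, with list medians as bars and red for an adjusted p under 0.05. Red points make up 7.14% of the mitochondrial ribosome, 22.2% of the translation factors and 5.13% of complex I. The 2 red translation factors had means of 3.15 and 3.25, under the median entry at 3.87. The median of the mitochondrial ribosome, 0.07 as deposited, is below 0 after centring (-0.04) or quantile normalization (-0.01), and that of complex V is -0.16.

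Cytosolic ribosomal protein genes, which build the ribosome that makes these proteins, had 0 of 92 called by limma and 0 by the linear model without moderation, with 5 at an unadjusted limma p under 0.05 and a median difference of -0.01 (-0.13 after centring and -0.01 after quantile normalization). Mitochondrial import genes had 0 of 15 called by either, with 2 at an unadjusted limma p under 0.05 (13.3%), both higher. Their median was -0.01 (-0.13 after centring and -0.08 after quantile normalization). A mean under 5 was found for 8 of the 92 cytosolic and 6 of the 15 import genes. Among 6 regulators of nuclear genes for mitochondrial proteins, limma called none, and none had an unadjusted p under 0.05. *ewg*, the fly homolog of nuclear respiratory factor 1, averaged 5.76 ± 0.34 in *Apc1* mutant and 5.38 ± 0.20 in wild-type midguts (SD, n = 3 each, limma adjusted p = 0.266). *srl*, the fly PGC-1 homolog, differed by -0.26 (limma adjusted p = 0.602), with wild-type arrays at 5.10, 6.24 and 6.01, and was called only without wild-type replicate 1 (-0.60, limma adjusted p = 0.0417). *Dref* (0.17), *Ets97D* (0.12), *Myc* (-0.17) and *ERR* (-0.25) did not pass the test.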

How the data were processed

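RNA of whole midguts from 3 *Apc1* mutant and 3 wild-type samples was hybridised by the authors to Affymetrix Drosophila Genome 2.0 arrays. The deposited values were log2 intensities from RMA per probe set. The submitters' processing notes name MAS5 and RMA without a role, and the software, background correction and filters are not given in the sources used here. Deposited columns of the authors' own comparison (ratios, fold changes, p-values) and of group summaries were not used.

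Of 18952 probe sets, 183 were controls, 14363 were named through accessions, 311 through symbols or synonyms and 118 by the deposited name alone, and 3977 had no gene name, giving 12996 gene entries with 1 probe set each, the brightest. Chromosome arms and gene order came from a RefSeq gene table. No value was filtered or rescaled. The genotypes were compared with limma 3.58.1 (lmFit and eBayes) in R 4.3.3, with p-values adjusted by Benjamini-Hochberg over all 12996 entries and a threshold of 0.05. Intervals of 95% came from the moderated test. The number of arrays, 3 per genotype, limits the precision. The script was tested on simulated data. Tables and figures were made with Python 3.11.15, pandas 2.3.3 and matplotlib 3.10.9.

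The genes named were the called members, those with the 5 highest and 5 lowest mean values, the 2 with the largest pooled SD, those with an adjusted p closest to 0.05 on either side, members on shared probe sets, and set non-members. The clause on the adjusted p was read as 3 members on each side only after values had been seen, which brought in *mRpL33*, *mRpS18B* and *mRpS26*. Other members were named as examples of their role groups. Members and lists were chosen with earlier results of these data known. Alternatives changed the choice of probe set, scaling, filter, variance model, array weights, sample number block and thresholds, or left out 1 array.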

Additional observations from a re-analysis of the deposited data

How the results depend on the processing

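*mRpS14* was called under every alternative with a test for it, 16 of 16. The count of members called higher, 4 in the values as deposited, was 2 after centring each array, after quantile normalization, and with a minimum change of 1.5-fold, 1 at an adjusted p under 0.01, and 1 to 3 when 1 array was left out, with 1 (*mRpS14*) without *Apc1* mutant replicate 2 or 3. The count called lower, 1, was 0 with every probe set adjusted on its own, at an adjusted p under 0.01 and with the 1.5-fold minimum, 2 without entries of mean under 5 or under the median, and 0 to 2 when 1 array was left out, with 2 (*mRpS22* and *mRpS31*) without wild-type replicate 2. With the sample number as a replicate block, 2 members were called higher (*mRpL39* and *mRpS14*) and 0 lower. Same-numbered arrays deviated together at r of 0.15, 0.20 and 0.01, so the numbers were not taken to pair the samples. All entries called, 1856, were 783 in the linear model without moderation, 716 at an adjusted p under 0.01 and 921 to 1533 when 1 array was left out.

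The median difference of members, 0.07, was -0.040 after centring, -0.012 after quantile normalization and 0.032 to 0.084 when 1 array was left out; for the large subunit these were -0.032, -0.012 and 0.031 to 0.084, and for the small subunit -0.046, -0.012 and 0.032 to 0.10. Centring also moved the split of all calls to 714 higher and 888 lower (44.6% higher), beside 62.3% higher as deposited and 55.2% after quantile normalization. Single genes changed sign after centring (*bonsai* -0.074, *mRpL47* -0.10, *mRpL53* -0.10, *mRpS21* -0.035), after quantile normalization (*bonsai* -0.028, *mRpL47* -0.061, *mRpL53* -0.058, *Ets97D* -0.0016), with array weights (*mRpL47* -0.00030, *mRpS6* 0.0013) and with the mean of probe sets (*mRpS10* 0.29). When 1 array was left out, differences crossed 0 for *Apc* (-0.096 to 0.32), *Myc* (-0.41 to 0.028), *bonsai* (-0.0091 to 0.091), *mRpL2* (-0.058 to 0.018), *mRpL47* (-0.081 to 0.074), *mRpL52* (-0.092 to 0.052), *mRpL53* (-0.040 to 0.075), *mRpS34* (-0.010 to 0.32) and *mRpS6* (-0.10 to 0.085). None of these was called in any of these fits, and the cause was not tested.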
